A study of Mus musculus with 2 samples.

Results

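Expression of the genes of the LIF, JAK and STAT3 pathway was examined in Baf53a-deficient ES cells that were kept alive by exogenous Baf53a or by exogenous Baf53b. The 10 members were Lif, Lifr, Il6st, Jak1, Jak2, Stat3, Socs3, Bcl3, Pim1 and Gbx2. They were chosen by name, and their probes were found through the RefSeq accession that the array files give for each probe, which led to 13 probes of all 10 genes among 20823 genes named in this way. Both samples came from Baf53a cKO ES cells, a line derived from mouse E14 ES cells in which both Baf53a alleles were mutated with CRISPR/Cas9 and a resistant Baf53a cDNA is expressed only in the absence of tetracycline (Tet). The line is 1 clone. The cells were transfected with an expression vector for Myc-tagged Baf53a or Myc-tagged Baf53b, divided 48 h later and then cultured for 6 days with 1 μg/mL Tet, which both groups received, in medium that contained serum and LIF. RNA of each group was hybridised to 1 array, so that no difference has a replicate check, no test was possible and no p-value is given.

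LIF is a cytokine of the IL-6 family that keeps mouse ES cells undifferentiated. It joins its receptor Lifr to the shared signalling chain gp130, encoded by Il6st, and the JAK kinases bound to these chains then phosphorylate the transcription factor Stat3, which moves to the nucleus. Stat3 induces the feedback inhibitor Socs3 and a set of genes that help to hold the undifferentiated state, and removal of LIF lets ES cells differentiate. The comparison addresses whether cells that carry Baf53b in place of Baf53a express these genes at a like level.

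The processed signal is the brightness of a spot after background subtraction and spatial detrending. Where a probe had several spots, their log2 signals were averaged. Each array was then scaled so that its 75th percentile, a signal of 1161 in Baf53a- and 1128 in Baf53b-expressing cells, became 0. All differences below are Baf53b- minus Baf53a-expressing cells on this log2 scale. A gene with several probes well above background was given the mean of their differences. The error beside a signal is the one that the scanner software assigned to the spot, and it holds no variation between cultures. Each difference of a member or of a related pathway gene was also computed in up to 10 alternative settings. These varied scaling, background correction, probe filter and source of the values. The number of settings given below includes the one just described. Marker genes of cell types and the genes of the label check were examined in the setting just described only. Probes bind with different strength, so the signals of different genes were not ranked against each other.

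The arrays carried 43020 gene spots each, none of them saturated, and 29247 of 39411 usable probes exceeded the background clearly, by the flag of the software, in both samples. As a check of the labels, the Actl6b (Baf53b) probe failed the background flag in cells given Baf53a and had a signal of 119 in cells given Baf53b, at least 14.5-fold higher after scaling. This bound sets it against the lowest signal that passed the flag on the other array, which was 8.45. Actl6a (Baf53a) gave signals of 3806 and 3600, a difference of -0.04. This probe did not tell the groups apart, so the check of the labels rests on Actl6b alone. Of 6 genes that mark undifferentiated ES cells, all were measured on both arrays, with differences from -0.15 (Esrrb) to 0.07 (Sox2).

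All 13 member probes were well above background on both arrays. The median difference of the 10 members was -0.02, beside a median of -0.0032 over 16608 genes measured on both arrays. Expression was higher in Baf53b-expressing cells for 4 members and lower for 6, while 50.9% of all genes measured were lower. At a 1.2-fold difference, which is 0.263 on the log2 scale, 1 member was higher, beside 8.47% of all genes, and 0 members were lower, beside 3.41%. At a 2-fold difference 0 members were higher and 0 lower, and over all genes these shares were 0.102% and 0.0903%. These counts compare 1 array with 1 array. In 4 alternative settings no member reached 1.2-fold in either direction while all 10 were measured.

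**Figure D1:**
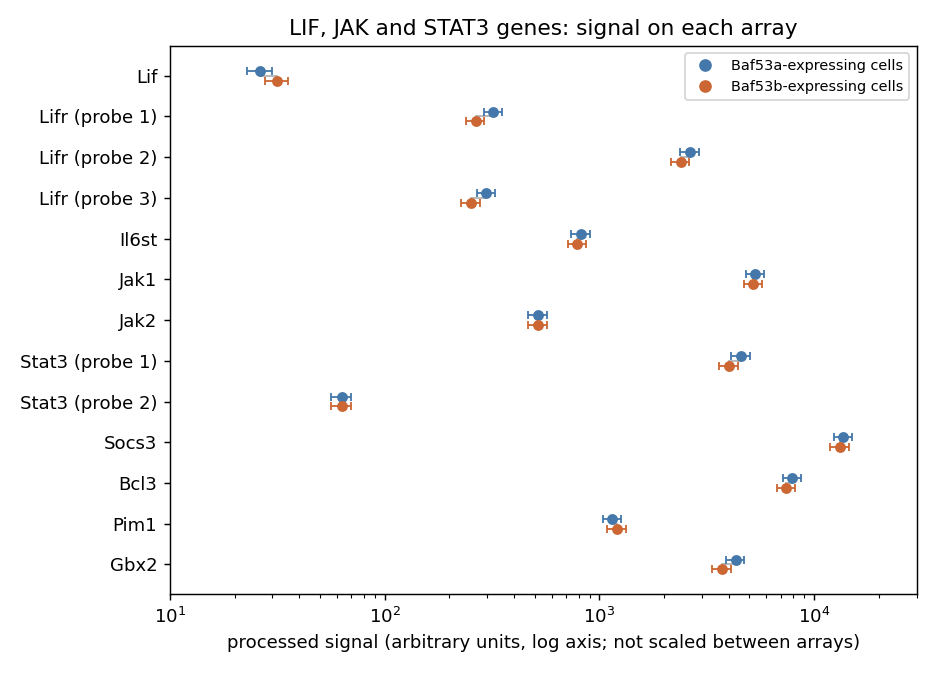
Processed signal (arbitrary units, log axis, before scaling between arrays) of each member probe in Baf53a-expressing (blue) and Baf53b-expressing (orange) cells. Lifr probes 1, 2 and 3 are A_51_P113182, A_55_P2159259 and A_55_P2159264, and Stat3 probes 1 and 2 are A_51_P201480 and A_55_P1991219; bars are the error given by the scanner software; Lif, the dimmest probe, gave 26.4 and 31.6 and Lifr probe 1 gave 321 and 265.

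Lif, the gene of the cytokine itself, was the member past 1.2-fold. Its probe gave a signal of 26.4 ± 3.53 (software error, 1 spot) in Baf53a-expressing cells and 31.6 ± 3.87 in Baf53b-expressing cells, a difference of 0.30 or 1.23-fold. The error of this difference was 0.262. This was the dimmest member probe, with a median pixel brightness of 53.0 over a local background of 23.0 in Baf53a-expressing cells and of 58.0 over 24.5 in Baf53b-expressing cells. When all probes measured on both arrays were sorted into 5 groups of equal size by mean signal, it fell into the dimmest, in which the median difference was 0.10, the SD of the differences was 0.324 and 28.1% of the probes were at least 1.2-fold higher. The difference of Lif ranged from 0.12 to 0.30 over 10 settings that gave it a value, and it was under 1.2-fold in the settings with normexp, cyclic loess, quantile normalization and centring on the median. The Lif mRNA is made by the cells themselves, whereas the medium of both groups already contained LIF.

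Lifr, the ligand-binding chain specific to LIF and its closest relatives, was measured by 3 probes, all lower in Baf53b-expressing cells. Probe A_51_P113182 gave 321 ± 32.2 in Baf53a- and 265 ± 26.5 in Baf53b-expressing cells, a difference of -0.24. Probe A_55_P2159264 gave 298 ± 29.9 and 253 ± 25.3, a difference of -0.20. Probe A_55_P2159259 gave 2638 ± 264 and 2389 ± 239, a difference of -0.10. Their mean difference, -0.18, was the lowest of the 10 members and corresponded to a signal 1.13-fold higher in Baf53a-expressing cells. The probe with the largest of these differences was the only Lifr probe whose difference was larger than its software error, 0.205. It lay 0.26 below the median of the probes of like brightness, whose SD was 0.154. All 3 probes stayed lower in Baf53b-expressing cells in every setting that used them. The setting with bright probes only and the setting with the brightest probe of a gene used A_55_P2159259 alone, at -0.10. The gene's difference was lower in each of 11 settings, with a range from -0.23 to -0.10.

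Il6st, the gp130 chain that LIF shares with other cytokines of its family, gave 821 ± 82.2 and 790 ± 79.1. After scaling, its difference was -0.01, and its sign changed among the settings (-0.06 to 0.01). Its signals lay within the software error of each other. Whether Lifr and Il6st differ in their response was not tested.

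The kinases Jak1 and Jak2, which are bound to the receptor chains and phosphorylate Stat3, were close to 0. Jak1 gave 5334 ± 533 in Baf53a- and 5223 ± 522 in Baf53b-expressing cells, a difference of 0.01. Jak2 gave 516 ± 51.6 and 519 ± 51.9, a difference of 0.05. Both signs changed among the settings, with a range from -0.04 to 0.06 for Jak1 and from -0.0011 to 0.06 for Jak2. Among the other kinases of the family, Tyk2 differed by -0.03 (range -0.08 to 0.01) and Jak3, known from lymphocytes, by -0.14, with -0.05 and -0.23 from its 2 probes.

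Stat3, the transcription factor at the centre of the pathway, was the member measured with most spots. Its probe A_51_P201480 was printed as 10 spots, of which the software marked the same 2 as outliers on both arrays. In the remaining 8, the signal ran from 4504 to 4736 with a median of 4575.5 in Baf53a-expressing cells, and from 3869 to 4160 with a median of 4036.5 in Baf53b-expressing cells. Before scaling, these spots of both arrays did not overlap, and how many other repeated probes did the same was not counted. The log2 SD over the spots was 0.0234 in Baf53a- and 0.0316 in Baf53b-expressing cells. Differences of all probes of like brightness had an SD of 0.108. The difference was -0.14 ± 0.0193 (SD over 8 spots), with a lowest spot of -0.18 and a highest of -0.11, and the outlier spots gave -0.19 and -0.15. Spots of 1 array share 1 RNA preparation and are not replicates of the condition. The other Stat3 probe, A_55_P1991219, is named by another transcript accession and was dim, with 63.0 ± 6.67 in Baf53a- and 63.0 ± 6.63 in Baf53b-expressing cells, a difference of 0.04. The mean over both Stat3 probes was therefore -0.05, and the brighter probe alone gave -0.14.

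**Figure D2:**
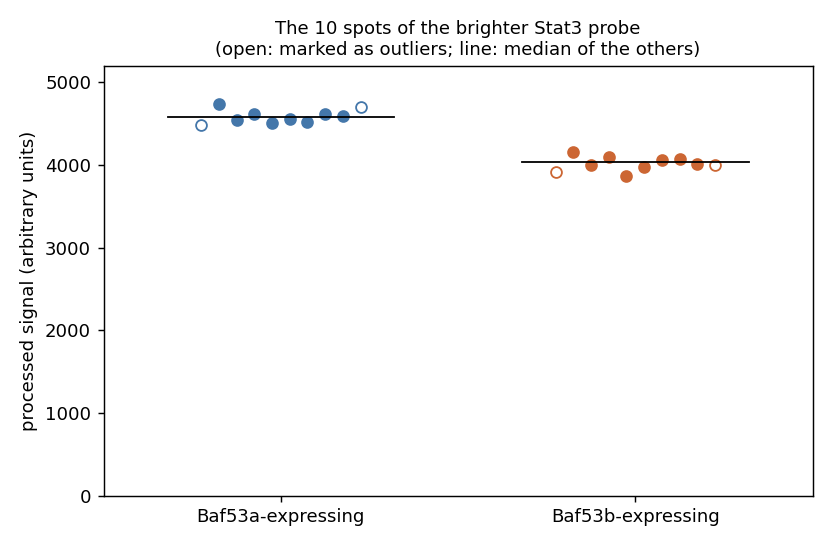
Processed signal (arbitrary units, linear axis from 0, before scaling between arrays) of the 10 spots of Stat3 probe A_51_P201480 on each array. Open circles are spots marked as outliers. Lines are the medians of the other 8, at 4575.5 in Baf53a- and 4036.5 in Baf53b-expressing cells.

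Bright probes as a whole were lower in Baf53b-expressing cells. The part of this trend in the difference of Stat3 was not tested. In the brightest of the 5 groups of probes the median difference was -0.06 with an SD of 0.108, so that the brighter Stat3 probe lay 0.08 below that median, within 1 SD. Markers of undifferentiated ES cells with probes in the brightest group went both ways. Esrrb, Pou5f1 (Oct3/4), Nanog and Zfp42 differed there by -0.15, -0.13, -0.11 and -0.11, and Sox2 and Nr0b1 (Dax1) by 0.07 and 0.07. With cyclic loess, which removes a trend with brightness, the brighter Stat3 probe differed by -0.10, and it was lower in Baf53b-expressing cells in each of 11 settings (-0.20 to -0.10). The dim Stat3 probe changed sign among the settings that used it (-0.04 to 0.04).

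Other STAT genes also lay near 0. Stat2, Stat4, Stat5a, Stat5b and Stat6 differed by -0.11, -0.04, -0.07, -0.0048 and 0.02. The sign of the last 2 changed among the settings.

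Socs3 binds the receptor complex and the JAK kinases and shuts the signal down, and its mRNA is a common readout of active Stat3. It gave 13746 ± 1370 in Baf53a- and 13161 ± 1320 in Baf53b-expressing cells, a difference of -0.02. Relative to probes of like brightness, Socs3 lay 0.04 above their median, and its sign changed among the settings (-0.07 to 0.04). Of 14 other negative regulators, which were the other SOCS proteins, Cish, the PIAS proteins and 3 phosphatases, all were measured and 0 reached 1.2-fold. Their median was 0.02, from -0.07 (Socs2) to 0.16 (Ptpn1, whose 2 probes gave 0.02 and 0.29). Socs1, which also blocks JAK kinases, differed by 0.10 and stayed higher in each of 10 settings (0.04 to 0.11).

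Stat dimers bind a palindrome that can be written TTCNNNGAA and reads the same on both strands. The 250 bases before the RefSeq start of each gene were searched for it. All 10 members had such a sequence (GRCm38.p6, a later build than the mm9 annotation of the array), and Socs3 was the one member with a match. Over 27025 genes with a promoter in this table, 8.13% had a match. The narrower form TTCCNGGAA was found in 0 members and in 1.09% of all genes. The Socs3 sequence is shown because this gene is the standard readout of Stat3, with the match in capitals. It lies at chr11:117969367-117969616 on the minus strand, and 145 bases separate the match from the start. A match of letters is a description and not evidence of binding.
Socs3: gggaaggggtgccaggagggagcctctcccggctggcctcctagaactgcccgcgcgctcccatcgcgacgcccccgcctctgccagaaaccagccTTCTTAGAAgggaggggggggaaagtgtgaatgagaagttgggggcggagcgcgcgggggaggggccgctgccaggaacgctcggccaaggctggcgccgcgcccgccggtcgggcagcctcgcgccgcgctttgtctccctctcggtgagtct

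The wider list of the pathway, as reported here, held 47 genes, of which 35 had a promoter in the table and 2 had the motif in the 250 bases. These were Gab1, an adaptor that links gp130 to the MAP kinase and PI3 kinase pathways, and Zfp36, which encodes an RNA-binding protein that promotes mRNA decay. They are printed for comparison with the Socs3 match, in GRCm38.p6, on the minus strand at chr8:80880480-80880511 and chr7:28379229-28379265. The matches share their outer letters but differ in the central bases.
Gab1: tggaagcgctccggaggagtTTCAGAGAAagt
Zfp36: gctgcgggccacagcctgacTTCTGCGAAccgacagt
Gab1 differed by 0.20 and Zfp36, a dim probe with signals of 31.2 and 30.8, by 0.03.

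The members that respond to LIF in ES cells moved in different directions by small amounts. Gbx2, a homeobox factor that can sustain ES cells when it is overexpressed, gave 4308 ± 431 in Baf53a- and 3723 ± 372 in Baf53b-expressing cells. Its difference of -0.17, 1.12-fold, was the lowest of any single-probe member, lay 0.11 below the median of the brightest group and was lower in each of 11 settings (-0.22 to -0.13). Pim1, a serine and threonine kinase induced by Stat3, gave 1154 ± 115 and 1213 ± 121, a difference of 0.11, and was higher in each of 10 settings (0.06 to 0.13). Bcl3, an IκB family protein that acts as a transcriptional coregulator, gave 7929 ± 793 and 7427 ± 743, a difference of -0.05 (-0.10 to -0.0053), which was 0.01 above the median of probes of like brightness. None of these 3 differences was larger than the software error of 0.204.

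Over the 13 member probes, 2 had a difference larger than the software error, those of Lif and of 1 Lifr probe. For bright probes this error is a constant share of the signal and comes to 0.204 on a difference. Relative to the median and SD of probes of like brightness, 10 of the 13 lay within 1 SD and all 13 within 2 SD. Repeated spots of 1 probe agreed more closely, with an SD for the difference of 2 single spots of 0.274 in the dimmest and 0.059 in the brightest group. By this measure 7 of the 13 differed by more than the spot SD of their group, which holds neither the noise of labelling nor that of culture. In the brightest group the median difference of all probes, -0.0632, was itself larger in size than that group's spot SD, 0.059. The shares of all probes past the same limits were not counted. The counts in this paragraph therefore do not set the members apart from other probes. Of the 10 genes, 6 kept their sign in every setting that gave them a value, with Lif and Pim1 higher and Lifr, Stat3, Bcl3 and Gbx2 lower in Baf53b-expressing cells. In the wider pathway list 25 of 47 genes also kept their sign, and the share over all genes was not counted. Keeping a sign therefore does not set the members apart. Several of these settings could not alter the value of a gene with 1 probe.

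**Figure D3:**
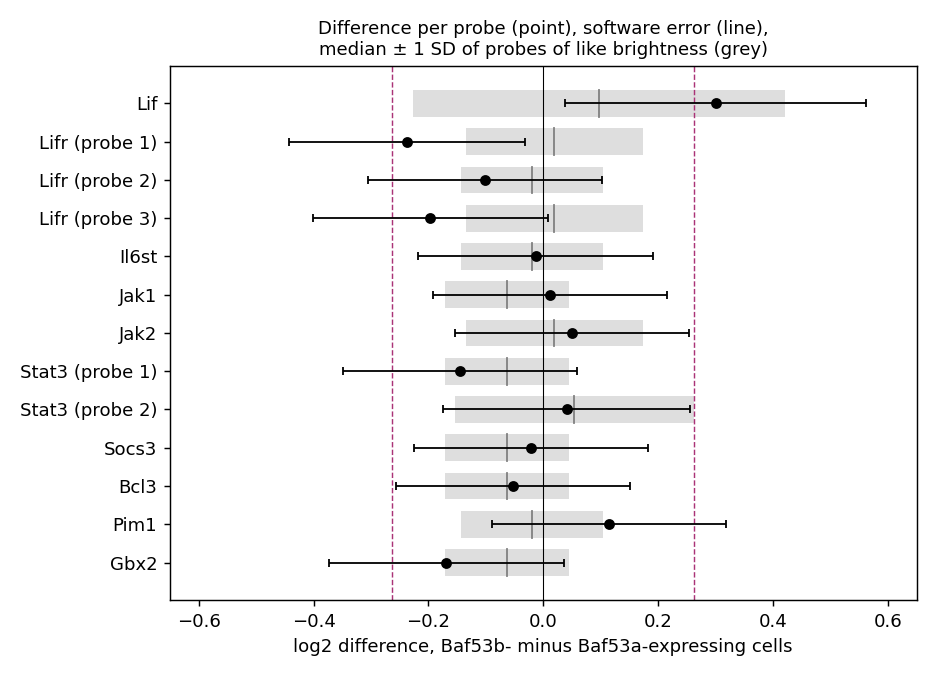
Log2 difference, Baf53b- minus Baf53a-expressing cells, of each member probe (points) with the error of the scanner software (lines). Grey bars are the median ± 1 SD of all probes in the same of 5 groups of brightness and dashed lines are 1.2-fold; Lif at 0.30 is the one point past a dashed line.

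**Figure D4:**
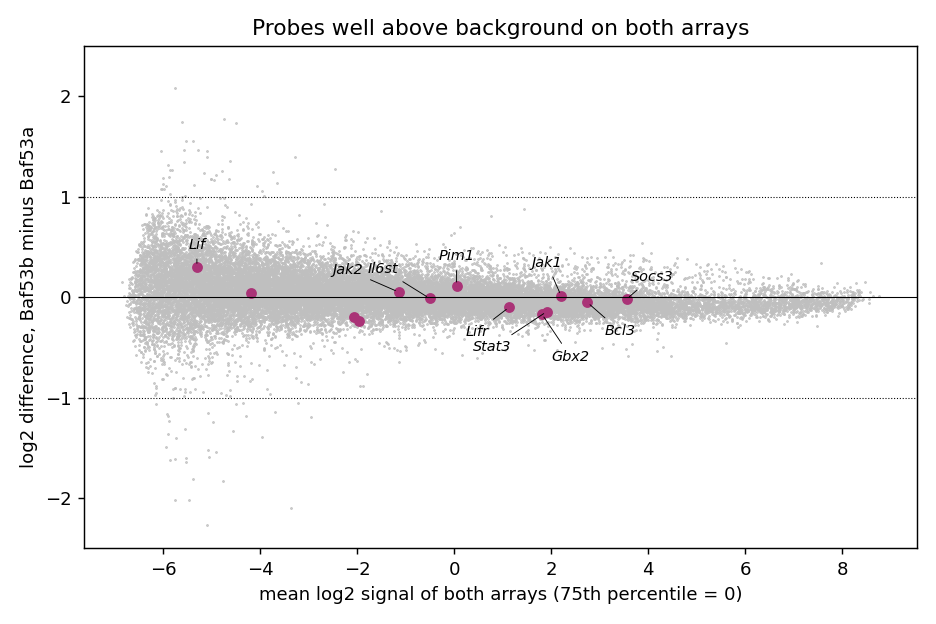
Log2 difference against mean log2 signal for 29247 probes that passed the background flag in both samples (grey), with the 13 member probes in purple and dotted lines at 2-fold. Each gene is labelled at its brightest probe; the member probes lie inside the grey cloud, and the cloud narrows from an SD of 0.324 in the dimmest of 5 groups to 0.108 in the brightest.

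The wider pathway list was used to see whether the members stood apart from related genes. All of its 47 genes were measured on both arrays, with a median difference of 0.0011, and 41 differed by less than 0.2. At 1.2-fold 2 genes were higher and 1 was lower in Baf53b-expressing cells, beside 8.47% and 3.41% of all genes, with 0 at 2-fold. Pramel7, a gene of undifferentiated ES cells that responds to LIF, was measured by a probe in the second brightest group. It gave 766 in Baf53a- and 937 in Baf53b-expressing cells, a difference of 0.33, and was past 1.2-fold in each of 10 settings (0.28 to 0.34). It belongs to a family of related genes, and whether its probe also binds their transcripts was not examined.

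Among the other 11 LIF-responsive genes, which included the naive pluripotency factors Klf4 (-0.04), Klf5 (0.05) and Tfcp2l1 (-0.02), none reached 1.2-fold. Myc differed by 0.0092, Junb by 0.0011 and the survival factor Mcl1 by -0.0069. The signs of these 6 genes changed among the settings. Pim3, a relative of Pim1, differed by -0.09 where Pim1 differed by 0.11. The median of all 12 was 0.02.

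Several cytokines related to LIF had dim probes, as Lif did. Il6 gave 23.5 and 28.3, a difference of 0.31, Clcf1 gave 23.5 and 27.1, a difference of 0.24, and Osm gave 19.3 and 16.9, a difference of -0.14. Il6 was past 1.2-fold in 6 of 10 settings. Osm was 1.2-fold lower in 1 of 10 settings and higher by 0.03 in another. Of the receptor chains, Osmr and Cntfr differed by 0.25 and -0.20, the first from a dim probe with signals of 41.5 and 47.9. Il6ra differed by 0.10 and Il11ra1 by -0.09.

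Downstream of the receptor, the phosphatase SHP2 (Ptpn11) and the adaptor Grb2 differed by -0.03 and 0.0087. Sos1, a guanine nucleotide exchange factor for Ras, had the lowest value of the list, -0.46, from a dim probe with signals of 18.1 and 12.8. Its difference ranged from -0.60 to -0.0043 over 10 settings.

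**Figure D5:**
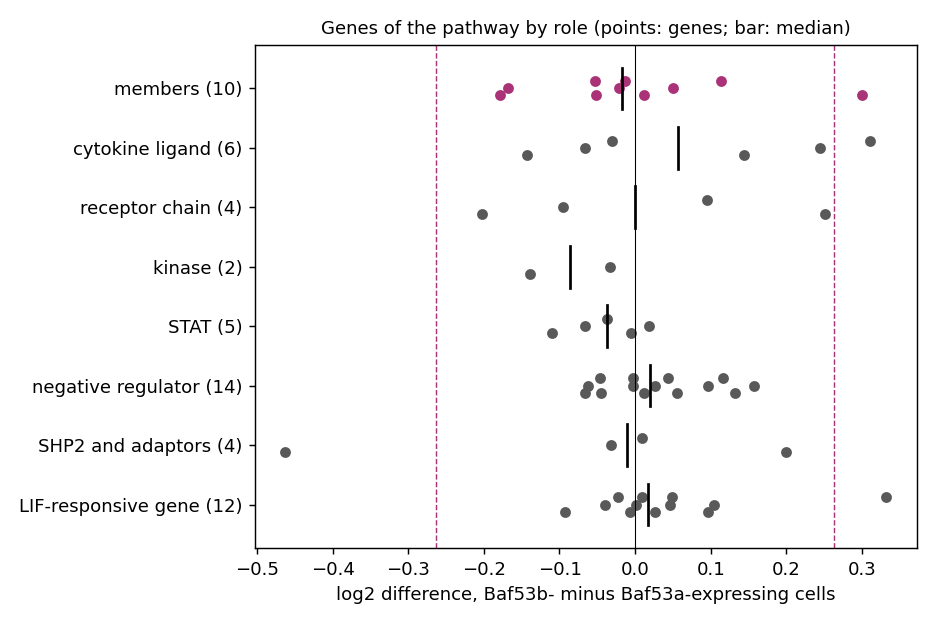
Log2 difference, Baf53b- minus Baf53a-expressing cells, of the 10 members (purple) and of the 47 genes of the wider pathway list (grey), by role. Points are genes, black bars are medians and dashed lines are 1.2-fold; of the wider list, Il6 and Pramel7 lie past the upper line and Sos1 past the lower one.

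Among markers of other cell types, those of primitive endoderm and trophoblast were higher in Baf53b-expressing cells. The markers were not examined in the alternative settings, so whether these differences depend on the scaling was not tested. Summed signals in this paragraph are before scaling between arrays, whereas the differences are after it. All 6 primitive endoderm genes listed were higher (0.08 to 0.40), 3 of them by 1.2-fold beside 8.47% of all genes, with a summed signal of 2454 in Baf53a- and 2821 in Baf53b-expressing cells. All 5 trophoblast genes were higher as well (0.15 to 0.44), with sums of 43717 and 53412, most of it from Krt18. The 2 past 1.2-fold, beside 8.47% of all genes, were the keratins Krt8 (0.44) and Krt18 (0.32). The transcription factors Cdx2 (0.18), Eomes (0.25) and Hand1 (0.15) were under 1.2-fold. The 6 genes of undifferentiated cells had sums of 192463 and 173501, with 4 of 6 lower and 0 past 1.2-fold. Of the 8 fibroblast genes 6 were measured on both arrays, of which 5 were higher and 1 was lower, with a median of 0.17 and 1 gene past 1.2-fold. The sums over all 8, 1646 and 1585, ran the other way, and Thy1, the gene that was lower, gave 894 and 780. Being unscaled, these sums also hold the offset between the arrays, whose 75th percentiles were 1161 and 1128. Postn was not well above background on either array, and Col3a1 passed the flag in Baf53b-expressing cells alone, with 8.73 and 11.3. Of the 4 neuronal genes 3 were measured on both arrays, with 2 higher, 1 lower and 0 past 1.2-fold, and the sums were 9270 and 8153, most of it from Tubb3. Of the 3 Dcx probes, 1 passed the flag in Baf53b-expressing cells alone, with 7.58 and 12.2, close to the lowest signals that passed it, and the other 2 passed it on neither array. The part of these markers in the differences of the pathway genes was not tested. In such bulk samples, fewer cells of a type and less RNA per cell cannot be told apart.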

How the data were processed

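The members and gene lists were chosen with earlier results of these data known. Cy3-labelled cRNA of 2 samples, 1 per condition, was hybridised to mouse arrays of 1 colour. Per the submitters' notes, Agilent Feature Extraction 11.0.1.1 read the scans, and the files the authors deposited hold a processed intensity for every spot, corrected for background and for spatial trends, without scaling between arrays. The deposited value table of 30488 probes is a ratio, and all 30479 values compared on each array equalled the probe's processed signal divided by 1160 (Baf53a) or 1126 (Baf53b), within 0.1%. Its columns had medians of 0.257 and 0.262. How these divisors were set is not given in the sources used here. They lie close to the 75th percentiles of the arrays, 1161 and 1128. The value table is therefore nearly the same scaling as the main one and adds little as an alternative setting.

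From the intensities, control and outlier spots were left out, log2 signals were averaged per probe, and each array's 75th percentile was taken off. The background flag of the software had to be set for 50% or more of a probe's spots. Symbols came from RefSeq accessions in a table of GRCm38.p6, used for names only. There were too few arrays for genes of like pattern to be named. All members were named, and genes of the wider list when past 1.2-fold or related to a member; Gab1, Zfp36 and the other genes were named after their values were seen. For the wider list, 2 genes are not reported here, and the 47 genes, counts and median given do not include them. Alternatives were other scalings, normexp with an offset of 50, other filters and flags, outlier spots kept, the value table and the brightest probe of a gene. Python 3.11.15, numpy 2.4.6, pandas 2.3.3, R 4.3.3 and limma 3.58.1 were used. The calculation was run on simulated data with 200 changed probes, all of which were found at 2-fold. The planted changes were larger than 2-fold, and the noise was close to the spot SD of the brightest probes. This recovery was therefore fixed by the setup and checks the arithmetic only. The run does not cover dim probes or differences near 1.2-fold.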

Additional observations from a re-analysis of the deposited data

How the results depend on the processing

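No paired analysis was possible because each condition had a single array, which also means that leaving out a replicate could not be tried. Normexp was run on the median signal, since a mean signal was not analysed here. The count of members at least 1.2-fold higher, 1 (Lif), was 0 under normexp, cyclic loess, quantile normalization, centring on the median and with probes above the 75th percentile only, the last of which leaves out Lif by construction. The counts of members at least 1.2-fold lower and at least 2-fold apart were 0 in all settings run. All 96 alternative values of single members moved by less than the spot SD of the brightness group of the gene's dimmest probe. For genes with 1 probe, many of these values repeat the main one because the setting could not alter it. Against the SD of its brighter probe, 0.059, the move of Stat3 from -0.05 to -0.14 with the brightest probe of a gene, or with probes above the 75th percentile only, was larger. The median of the members, -0.02, was 0.01 under quantile normalization, cyclic loess and normexp and -0.07 when arrays were centred on the median, which shifts all genes alike (their median became -0.05). With probes above the 75th percentile only, it was -0.08 over 6 members. The median of the wider list lay between -0.05 and 0.03. Over all genes, the share of 1.2-fold differences that were higher in Baf53b-expressing cells was 71.3%, and it was 50.6% under quantile normalization, 49.9% with centring on the median, 54.1% under cyclic loess, 80.8% under normexp and 57.0% with probes above the 75th percentile only. The cause was not tested. For Lif, Il6, Sos1 and the other dim genes, a signal close to the background limits the precision.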
